A study of Mus musculus with 12 samples.

Results

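The expression of 9 genes that respond to glucocorticoids (Nr3c1, Fkbp5, Tsc22d3, Zbtb16, Klf9, Sgk1, Pdk4, Mt1 and Mt2) was followed through 12 RNA-seq libraries of mouse spinal cord. The genes were chosen by name, with earlier results of these data known, and all 9 were present among the 38924 genes listed for each library. They also all passed the filter on low counts, which left 17765 genes. Glucocorticoids are steroid hormones of the adrenal cortex, and corticosterone is the main one in mice. In the cytoplasm the glucocorticoid receptor is held by Hsp90 and its co-chaperones. On binding hormone it moves to the nucleus, where pairs of receptors bind short palindromic elements in DNA and raise transcription of nearby genes. Corticosterone follows a daily rhythm and rises under stress and fasting, and glia, neurons and blood vessels of the spinal cord all carry the receptor.

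The mice were 8 weeks old and on a B6J.Cg background. The study compared wild type (WT) mice with mice that carried the C201R allele of Gars, which encodes glycyl-tRNA synthetase, the enzyme that loads glycine onto its tRNAs. Dominant changes in this gene cause the peripheral nerve disease CMT2D in people, and C201R mice are used as a model of it. A genotype tag gives C201R+/- where the title says C201R and C201R+/+ where it says WT, and was taken as heterozygous and wild type as the titles have it. By title there were 4 groups of 3 libraries: C201R_female (libraries 1, 11 and 12), C201R_male (2, 3 and 10), WT_female (4, 5 and 6) and WT_male (7, 8 and 9). The number is the one in the title. A library name within the description field also states a genotype, and it differs from the title in 4 libraries. The library name says C201R for 4 and 9, which the titles call WT, and it says WT for 11 and 12, which the titles call C201R. Genotype was therefore compared by title (6 against 6), by library name (6 against 6) and in the 8 libraries on which both labels give the same genotype (1, 2, 3 and 10 against 5, 6, 7 and 8).

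Estimated counts summed to 27175421 to 38271405 per library. Every member had at least 476.19 counts in every library, so sampling of reads was a small part of the spread over all 12 libraries. Within a group of close values its share can be larger, as for Fkbp5 in WT_male and Zbtb16 in C201R_male. Values are given as CPM, counts put on 1 library size by TMM, unless TPM, which also divides by transcript length, is named. Neuron, oligodendrocyte and astrocyte markers were abundant in all 12 libraries, with summed levels of 3974 to 4500 CPM for 5 neuron markers, 25781 to 31001 CPM for 6 oligodendrocyte markers and 2824 to 3389 CPM for 6 astrocyte markers. Skeletal muscle markers varied far more, from 17.6 to 2901 CPM over 8 genes. Xist, the RNA of the inactive X chromosome, was at 522 to 685 CPM in libraries 1, 2, 3, 8, 11 and 12 and at no more than 0.224 CPM in the other 6. That differs from the titled sex in 6 of the 12 libraries, and 5 of the 6 libraries high in Xist were titled C201R. Gars, where the allele is a point change that the gene total does not test, was at 137 to 152 CPM in libraries titled C201R and 130 to 155 CPM in those titled WT. By library name Gars was at 143 to 155 CPM in C201R and 130 to 142 CPM in WT, with no overlap. By this label 1.05% of all genes did not overlap with C201R lower, and the share with C201R higher was not counted. The labels do not say that each library came from its own animal, so every p-value measures the spread between these libraries only. In whole tissue, fewer cells of a type and less RNA per cell cannot be told apart.

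By level per transcript length, the members spanned more than 1 order of magnitude. Mt1 was the most abundant at 839 ± 62.4 TPM (SD, n = 12), followed by Mt2 at 474 ± 43.0 and Tsc22d3 at 183 ± 17.0. Sgk1 came next at 114 ± 57.8 TPM, with Klf9 at 63.8 ± 2.74 and Nr3c1 at 34.9 ± 2.03. The lowest levels were those of Fkbp5 at 15.8 ± 2.32 TPM, Pdk4 at 12.0 ± 4.07 and Zbtb16 at 11.7 ± 5.95. The spread of Sgk1 overlaps those of Tsc22d3 and Klf9, and the spreads of Fkbp5, Pdk4 and Zbtb16 overlap one another. The genes also differed in how steady they were. The highest library exceeded the lowest 5.47-fold for Sgk1, 3.61-fold for Zbtb16, 2.66-fold for Pdk4 and 1.57-fold for Fkbp5. For the remaining 5 genes this ratio was between 1.18 and 1.35. The plot of CPM by library shows all 9 in the order of the title numbers.

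**Figure D1:**
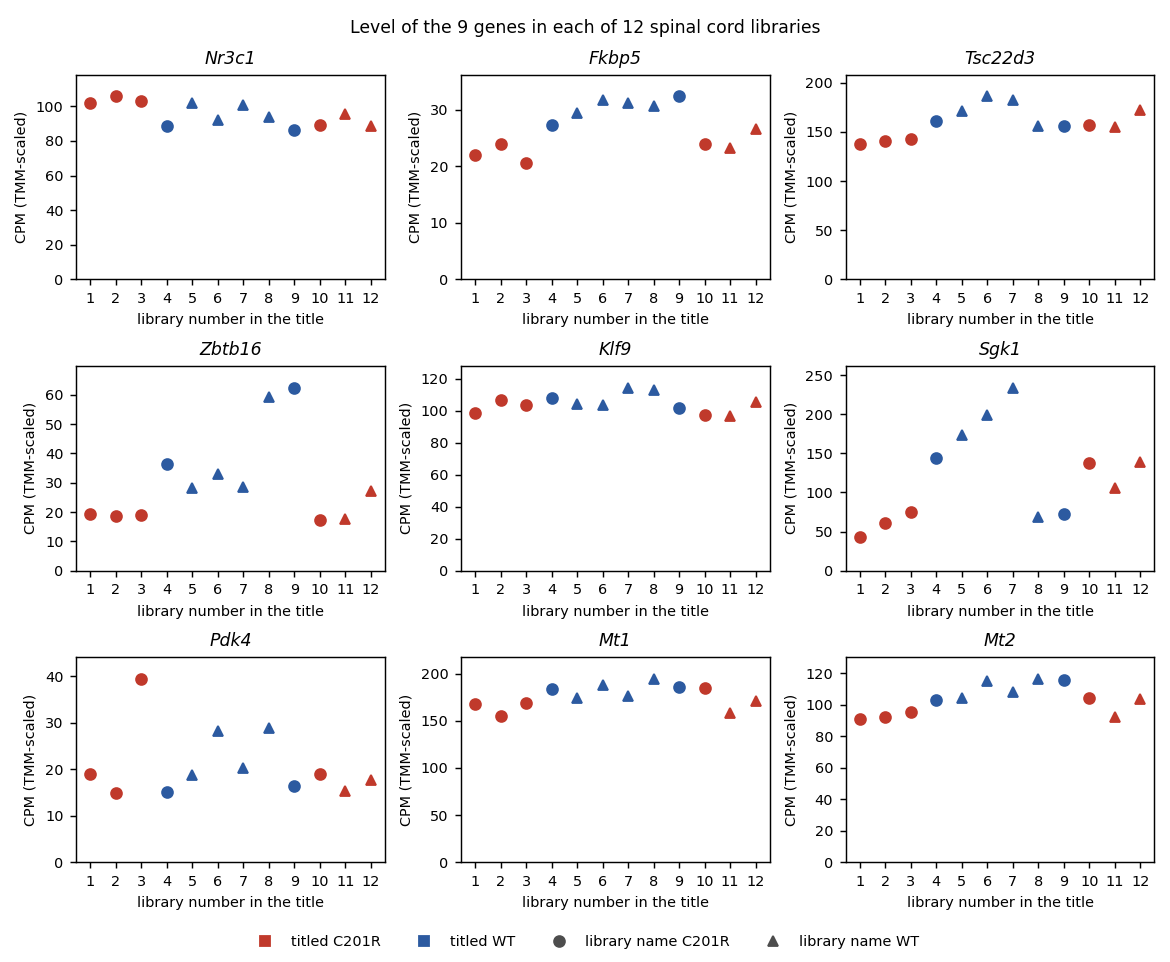
CPM of each of the 9 genes (vertical axis, 1 panel a gene) against library number 1 to 12 (horizontal axis); colour gives the titled genotype and symbol shape the genotype in the library name. Fkbp5 lies above 27 CPM in all 6 libraries titled WT (4 to 9), Sgk1 is high in 4 to 7, and Zbtb16 peaks in 8 and 9.

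Compared by title, the members leaned one way but no gene in the whole table passed the test. Of the 9, 8 had a lower fitted level in C201R, and the median log2 difference was -0.16, whereas 49.3% of all 17765 genes were lower and their median was 0.00. With the quasi-likelihood test of edgeR and Benjamini-Hochberg adjustment, 0 of 9 were called at 0.05, and the background was 0.0% of all genes. An unadjusted p under 0.05 was reached by 6 members, all lower in C201R (Fkbp5, Zbtb16, Mt2, Mt1, Tsc22d3 and Klf9), against 3.28% of all genes in that direction, and 1202 genes reached it in either direction. With DESeq2 the same comparison called 18 genes, or 0.101%, and 3 of them were members: Fkbp5 (adjusted p = 0.000146), Zbtb16 (adjusted p = 0.024) and Mt2 (adjusted p = 0.0457). The groups did not overlap for 2 members, Fkbp5 and Zbtb16, where 0.186% of all genes did not overlap with C201R lower.

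Relabelling the 4 disputed libraries changed which members stood out. By library name all 9 fitted levels were lower in C201R, with a median of -0.18. The Nr3c1 difference lay near 0 and changed sign in 9 of 24 alternatives, among them the TPM scale. With edgeR 0 of 9 were called, while 0.715% of all genes were. DESeq2 also called none of the 9 by library name, against 335 of all 17765 genes. Unadjusted p-values under 0.05 were found for 2 members, Tsc22d3 and Sgk1, against 6.81% of all genes in that direction. None of the 9 separated the groups, against 1.05% of all genes. In the 8 undisputed libraries, 8 of 9 were lower, the median was -0.23, and 1 member, Fkbp5, was called by edgeR, against 0.158% of all genes. Unadjusted p-values under 0.05 were found for 6 members, all lower in C201R (Fkbp5, Zbtb16, Mt2, Tsc22d3, Klf9 and Sgk1), against 6.80% of all genes. DESeq2 called 4 members in these libraries (Fkbp5, Tsc22d3, Zbtb16 and Mt2), against 1.41% of all genes. Fkbp5 and Zbtb16 again did not overlap between the groups, and 4.68% of all genes did the same. The comparisons share libraries and are not separate evidence.

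**Figure D2:**
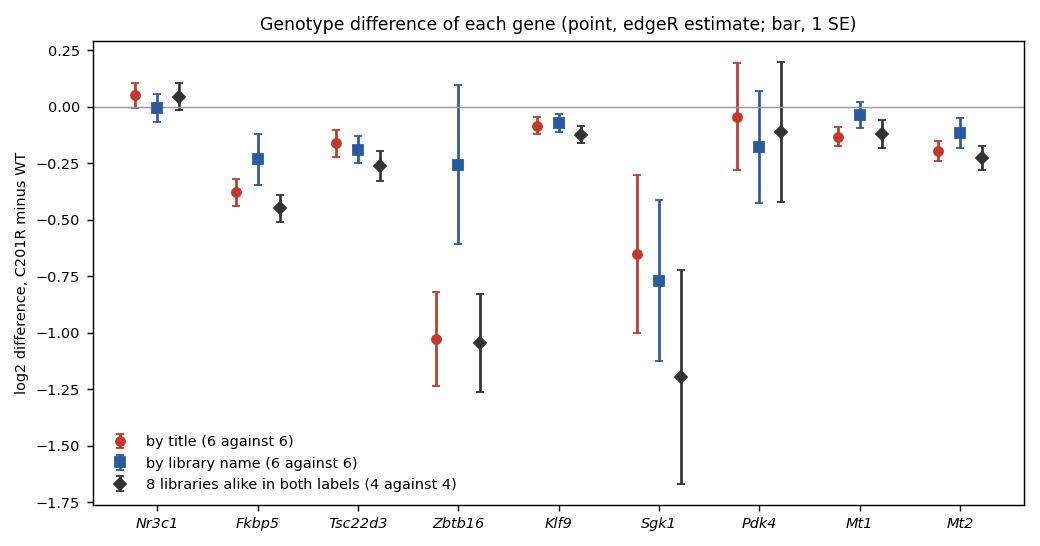
Fitted log2 difference, C201R minus WT (vertical axis), of each of the 9 genes (horizontal axis) by title, by library name and in the 8 libraries with 1 genotype in both labels; points are edgeR estimates and bars are 1 standard error. By title and in the 8 libraries, every gene but Nr3c1 lies below 0, and the Zbtb16 difference of -1.03 by title shrinks to -0.26 by library name.

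Fkbp5 (ENSMUSG00000024222, chromosome 17, 28399094 to 28517527 on the minus strand of GRCm38) encodes FKBP51, a co-chaperone of Hsp90 that lowers the receptor's affinity for hormone and is itself induced by the receptor. Libraries titled C201R had 21.9, 23.9, 20.6, 23.9, 23.2 and 26.6 CPM in libraries 1, 2, 3, 10, 11 and 12. Those titled WT had 27.2, 29.4, 31.7, 31.2, 30.6 and 32.3 CPM in libraries 4 to 9. The highest titled C201R library (12) lay just under the lowest titled WT library (4), and both are among the 4 disputed ones. Fkbp5 had the lowest p of all 17765 genes by title, with a log2 difference of -0.38 ± 0.06 (SE) and an adjusted p of 0.393 by edgeR. By library name the difference was -0.23 ± 0.11 (adjusted p = 0.407 by edgeR), with libraries 4 and 9 now the highest of C201R and 11 and 12 the lowest of WT. In the 8 undisputed libraries Fkbp5 fell in C201R, by 0.45 on the log2 scale (SE 0.06, adjusted p = 0.0334 by edgeR).

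The call of Fkbp5 in those 8 libraries depended on single libraries more than its size did. Leaving out 1 library at a time gave log2 differences between -0.48 and -0.41 and adjusted p-values between 0.0311 and 0.354 by edgeR, and the call held only without C201R_male 10. On log2(TPM + 1) with limma the adjusted p was 0.268. By title, with library number added as a term, the difference was -0.38 ± 0.05 and the adjusted p 0.0243 by edgeR, in a fit that called 8 genes (0.045%). The libraries titled WT lie in the middle of the number order and those titled C201R at both ends. A linear term cannot adjust for such an order, so this fit does not separate number from titled genotype. In both titled sexes Fkbp5 was lower in C201R: 23.9 ± 2.44 against 29.4 ± 2.25 CPM among females and 22.8 ± 1.91 against 31.4 ± 0.863 CPM among males (SD, n = 3 each). Xist did not follow these titled sexes. All libraries titled C201R female had 522 to 606 CPM of Xist, and all titled WT female had at most 0.224 CPM. The comparison among titled females therefore also sets high Xist against low Xist. Both titled male groups held libraries with high and with low Xist. Xist was high in 5 of 6 libraries titled C201R and in 1 of 6 titled WT. Library 8, titled WT with Xist at 552 CPM, had 30.6 CPM of Fkbp5, and library 10, titled C201R with Xist at 0.151 CPM, had 23.9 CPM. The part of sex in the Fkbp5 difference was not tested.

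Zbtb16 (ENSMUSG00000066687, chromosome 9, 48654297 to 48836222, minus strand) encodes PLZF, a zinc finger repressor that is strongly induced by glucocorticoids in many tissues. Titled C201R libraries 1, 2, 3, 10, 11 and 12 had 19.2, 18.7, 18.9, 17.3, 17.7 and 27.1 CPM. Titled WT libraries 4 to 9 had 36.2, 28.2, 32.8, 28.7, 59.1 and 62.3 CPM. The groups did not overlap, 5 of the 6 titled C201R libraries lay within 2 CPM of each other, and libraries 8 and 9 stood far above the other WT libraries. The log2 difference was -1.03 ± 0.21 by title (adjusted p = 0.542 by edgeR) and -0.26 ± 0.35 by library name (adjusted p = 0.828), where libraries 4 and 9 count as C201R and libraries 11 and 12 as WT. In the 8 undisputed libraries it was -1.05 ± 0.22 (adjusted p = 0.117 by edgeR). Without WT_male 8 the latter difference was -0.65 with an adjusted p of 0.0329 by edgeR, so this 1 library moves both the size and the call. With no filter on low counts the adjusted p was 0.0463 by edgeR over all 8.

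Tsc22d3 (ENSMUSG00000031431, chromosome X, 140539528 to 140600659, minus strand) encodes GILZ, a leucine zipper protein that carries part of the anti-inflammatory action of glucocorticoids. Its CPM were 138, 141, 143, 157, 155 and 172 in titled C201R libraries 1, 2, 3, 10, 11 and 12. They were 161, 172, 186, 182, 156 and 156 in titled WT libraries 4 to 9. Libraries 1 to 3 were the lowest, libraries 5 to 7 and 12 the highest, and the groups overlapped. The log2 difference was -0.16 ± 0.06 by title (adjusted p = 0.673 by edgeR), -0.19 ± 0.06 by library name (adjusted p = 0.185) and -0.26 ± 0.07 in the 8 libraries (adjusted p = 0.168).

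Klf9 (ENSMUSG00000033863, chromosome 19, 23141226 to 23168134, plus strand), a transcription factor induced by glucocorticoids and by thyroid hormone, was the steadiest of the 9. It lay between 97.1 and 107 CPM in the libraries titled C201R, with a median of 101, and between 102 and 114 CPM in those titled WT, with a median of 106. The ranges overlapped. The log2 difference was -0.08 ± 0.04 by title (adjusted p = 0.722 by edgeR), -0.07 ± 0.04 by library name (adjusted p = 0.486) and -0.12 ± 0.04 in the 8 libraries (adjusted p = 0.222).

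Sgk1 (ENSMUSG00000019970, chromosome 10, 21882184 to 21999903, plus strand) encodes a kinase whose transcript rises early after hormone and that regulates ion channels and transporters. Titled C201R libraries 1, 2, 3, 10, 11 and 12 had 42.7, 60.4, 75.0, 138, 106 and 139 CPM. Titled WT libraries 4 to 9 had 144, 174, 200, 234, 68.6 and 72.4 CPM. Libraries 4 to 7 were the 4 highest and libraries 1, 2, 3, 8 and 9 the 5 lowest, so both groups held low libraries and the groups overlapped. The log2 difference was -0.65 ± 0.35 by title (adjusted p = 0.773 by edgeR), -0.77 ± 0.35 by library name (adjusted p = 0.390) and -1.19 ± 0.47 in the 8 libraries (adjusted p = 0.348). Leaving out 1 library at a time moved the title difference between -0.86 and -0.33.

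Sgk1, Mt1 and Mt2 are the members whose start sites had a match to a hormone or metal element in the promoters searched, and the stretches that hold those matches are shown for that reason. They come from RefSeq promoters on GRCm38.p6, each 250 bases before to 50 after a start, and 7 of the 9 members have an entry, Zbtb16 and Nr3c1 being named only. Exact matches were searched on both strands for the glucocorticoid response element as 2 half-sites 3 bases apart, in full (AGAACA, then TGTTCT) and relaxed (GNACA, then TGTNC), and for the core of the metal response element (TGCACNC or TGCGCNC). The relaxed form lies within the full one. The full element was in 3 of 32851 promoters (0.00913%), the relaxed form in 156 (0.475%) and a metal element in 8444 (25.7%). In the members, the full element was at 1 of the 6 Sgk1 starts, bases -189 to -175 from a start at 21993890 on chromosome 10, and the relaxed form was there and in Mt1, bases -94 to -82. Metal elements numbered 4 in the Mt2 window, 3 in the Mt1 window and 1 at another Sgk1 start. The other promoters searched, of Fkbp5, Tsc22d3, Klf9 and Pdk4, held none of these letters in this window, which says nothing of elements elsewhere. Capitals mark the glucocorticoid element (Sgk1, and the first capitals of Mt1) and the metal elements (the last capitals of Mt1, and all those of Mt2). The stretches are written as the plus strand, at chr10:21993660-21993759, chr8:94178969-94179088 and chr8:94172388-94172617, and end at or before the last base ahead of the start. The last capitals of Mt2, bases -50 to -44, are a match on the minus strand.
Sgk1: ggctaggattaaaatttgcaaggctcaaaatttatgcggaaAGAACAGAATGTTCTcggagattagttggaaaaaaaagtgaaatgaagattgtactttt
Mt1: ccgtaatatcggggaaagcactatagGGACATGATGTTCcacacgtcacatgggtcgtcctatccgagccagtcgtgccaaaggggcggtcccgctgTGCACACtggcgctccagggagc
Mt2: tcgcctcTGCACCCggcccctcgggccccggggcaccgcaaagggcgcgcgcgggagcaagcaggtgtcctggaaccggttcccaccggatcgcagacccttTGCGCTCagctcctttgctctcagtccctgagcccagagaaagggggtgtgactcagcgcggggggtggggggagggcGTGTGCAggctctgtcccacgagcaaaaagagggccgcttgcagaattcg
A match is a description of letters and not a measured site.

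Mt1 (ENSMUSG00000031765, chromosome 8, 94179082 to 94180327, plus strand) and Mt2 (ENSMUSG00000031762, chromosome 8, 94172664 to 94173568, plus strand) are neighbours that encode small zinc- and copper-binding proteins, made in response to metals and to glucocorticoids. Mt2 was at 91.0, 91.8, 95.4, 104, 91.8 and 104 CPM in titled C201R libraries 1, 2, 3, 10, 11 and 12, and at 103, 104, 115, 108, 116 and 115 CPM in titled WT libraries 4 to 9. Libraries 1, 2, 3 and 11 lay below every titled WT library, whereas 10 and 12 lay among the lower WT values, so the groups overlapped slightly. The log2 difference of Mt2 was -0.19 ± 0.04 by title (adjusted p = 0.542 by edgeR), -0.12 ± 0.07 by library name (adjusted p = 0.507) and -0.23 ± 0.05 in the 8 libraries (adjusted p = 0.151). Mt1 ran from 155 to 185 CPM in titled C201R (median 168) and from 175 to 194 CPM in titled WT (median 185). Its log2 difference was -0.13 ± 0.04 by title (adjusted p = 0.640 by edgeR) but only -0.04 ± 0.06 by library name (adjusted p = 0.855). Their expected counts were whole numbers in all 12 libraries, and 432 exon bases of Mt2 lie opposite an antisense transcript, Gm45774, that has no value here.

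Pdk4 (ENSMUSG00000019577, chromosome 6, 5483351 to 5496309, minus strand) encodes a kinase that shuts pyruvate out of oxidation, rises in fasting and is abundant in muscle. Its CPM were 18.9, 14.8, 39.4, 19.0, 15.3 and 17.6 in titled C201R libraries 1, 2, 3, 10, 11 and 12. They were 15.2, 18.7, 28.2, 20.3, 28.8 and 16.4 in titled WT libraries 4 to 9. The 3 highest libraries, 3, 8 and 6, fell in both groups, and the log2 difference was -0.05 ± 0.24 by title (adjusted p = 0.993 by edgeR) and -0.18 ± 0.25 by library name (adjusted p = 0.830). Summed skeletal muscle markers were 2901, 2329 and 1206 CPM in those same 3 libraries, 1500 CPM in library 1 and no more than 647 CPM in the other 8, with none of the 8 markers at 0 in any library. Library 3 also had 129 CPM over 6 fat markers, against at most 7.37 CPM elsewhere. In the 8 libraries under 1000 CPM of muscle markers, a set chosen after seeing the data, Pdk4 differed by -0.08 ± 0.11 by title (SE), Fkbp5 by -0.30 ± 0.07 and Zbtb16 by -0.94 ± 0.27, and 0 genes were called by edgeR. The part of muscle and fat RNA in the Pdk4 values was not tested further.

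**Figure D3:**
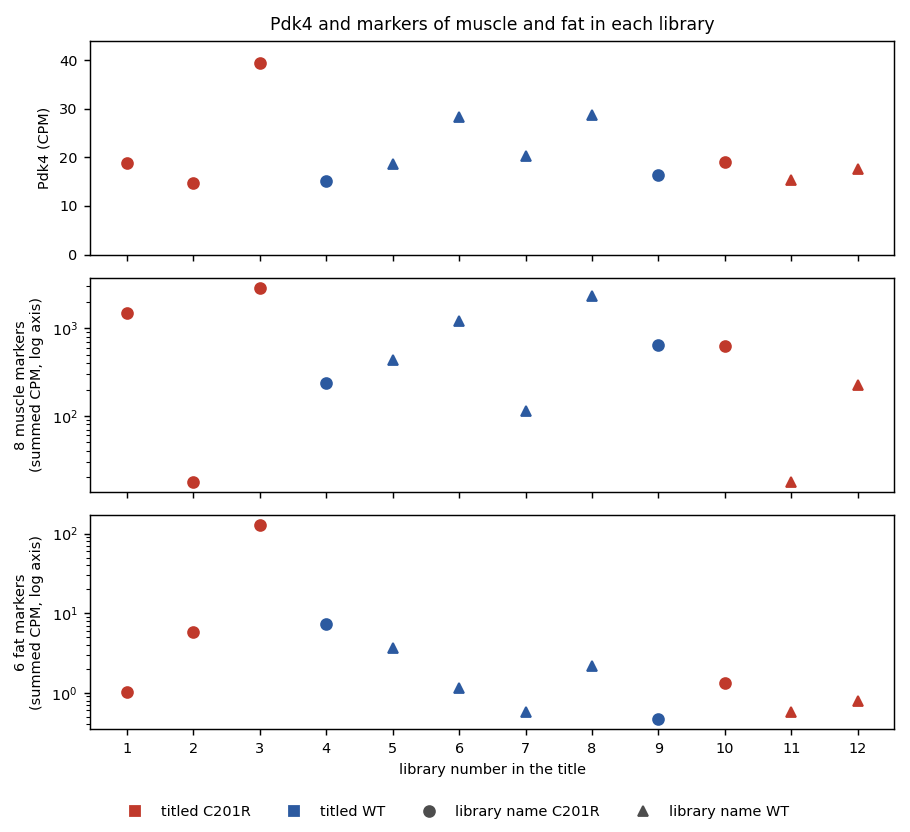
Pdk4 in CPM (top), the summed CPM of 8 skeletal muscle markers (middle, log axis) and of 6 fat markers (bottom, log axis) against library number, 1 point a library; colour gives the titled genotype and symbol shape the genotype in the library name. Libraries 3, 8 and 6 are highest in Pdk4 at 39.4, 28.8 and 28.2 CPM and hold over 1000 CPM of muscle markers, as does library 1 with Pdk4 at 18.9 CPM.

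Nr3c1 (ENSMUSG00000024431, chromosome 18, 39410545 to 39519421, minus strand) encodes the glucocorticoid receptor itself. It lay between 88.4 and 106 CPM in the libraries titled C201R, with a median of 98.7, and between 86.2 and 102 CPM in those titled WT, with a median of 93.0. The ranges overlapped almost whole, and the log2 difference was 0.05 ± 0.06 by title (adjusted p = 0.913 by edgeR) and 0.00 ± 0.06 by library name (adjusted p = 0.987). Nr3c1 was thus the 1 member that was not lower in C201R by title. With genotype by library name and titled sex in the fit, Nr3c1 fell by 0.027 per step on the log2 scale (SE 0.006, adjusted p = 0.0316 by edgeR), and it was the 1 member of 9 called, against 6.38% of all genes. Of the 1134 genes called along number 428 rose and 706 fell, whereas with limma on log2(TPM + 1) 2115 rose and 189 fell, so the direction of small slopes depends on the scale. Libraries 1, 2 and 3 had 102, 106 and 103 CPM, and libraries 10, 11 and 12 had 89.3, 95.4 and 88.4 CPM, with values of 86.2 to 102 CPM between them. The call was lost in 18 of 27 alternatives, among them 8 of the 12 fits that left out 1 library (libraries 1, 2, 3, 5, 7, 9, 10 or 12), where the adjusted p was up to 0.111 by edgeR. It was 0.0778 without the sex term, 0.431 with limma on log2(TPM + 1) and 0.537 in libraries 4 to 12 alone, where the slope was -0.014.

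For the 8 other members the number gave no call. Of the 9 slopes, 3 were negative (Nr3c1, Klf9 and Pdk4) and 6 positive, with a median of 0.01, and 50.5% of all genes had a negative slope. The 6 positive slopes (Fkbp5, Tsc22d3, Zbtb16, Sgk1, Mt1 and Mt2) came from a rise between libraries 1 to 3 and the next ones. In libraries 4 to 12 alone all 6 turned negative, with Sgk1 at -0.086 and Zbtb16 at -0.077 per step, and in libraries 1 to 9 alone the slope of Zbtb16 was 0.28 and that of Mt2 0.05 (both adjusted p = 0.0491 by edgeR). Titled genotype follows the same order, with C201R at 1 to 3 and 10 to 12 and WT at 4 to 9, so in such subsets number and genotype by title cannot be told apart. With number in the fit, the library-name difference was negative for all 9 members (Mt1 was positive on the TPM scale), 3 had an unadjusted p under 0.05 (Klf9, Tsc22d3 and Nr3c1, all lower, as were 9.72% of all genes) and 0 were called, against 1.32% of all genes.

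Likeness between the members varied. Over the 12 libraries, Pearson's r of log2(CPM + 0.5) was above 0.7 for 7 of the 36 pairs of members and below 0 for 8. It was highest for Tsc22d3 with Sgk1 (r = 0.914, Spearman's rho = 0.916), Mt1 with Mt2 (r = 0.895, rho = 0.916) and Fkbp5 with Mt2 (r = 0.886, rho = 0.860), and it was 0.819 for Fkbp5 with Zbtb16 (rho = 0.797). Zbtb16 and Sgk1, both induced by the hormone, had an r of 0.051 (rho = 0.189), which was 0.675 without libraries 8 and 9. Nr3c1 ran opposite to several targets, most of all Mt1 (r = -0.626, rho = -0.608, and r = -0.442 without libraries 2 and 9). These are descriptions over libraries that share groups, and without the 2 libraries farthest from the median of the first gene the r of Tsc22d3 with Sgk1 was 0.867 and that of Fkbp5 with Zbtb16 was 0.821.

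In libraries 8 and 9 the members went different ways. Zbtb16 and Mt2 were higher in both than in any of libraries 4 to 7, and Sgk1 and Tsc22d3 were lower in both than in any of those 4. All 6 were titled WT, and the split was chosen after the values were seen, so it is given as a description. Among all genes, 7.22% were higher and 7.14% lower in this way. Of 30 other glucocorticoid-induced genes, 9 were lower in both (Per1, Ddit4, Nfkbia, Dusp1, Cebpd, Arrdc2, Rasd1, Tiparp and Arl4d) and 2 were higher (Plin4 and Sdc4). Nfkbia, which encodes the inhibitor that holds NF-kappaB in the cytoplasm, was at 36.8, 38.8, 42.4 and 41.0 CPM in libraries 4 to 7 and at 19.8 and 23.3 CPM in 8 and 9. Per1, a clock gene with a direct hormone response, was at 58.8, 63.1, 72.2 and 71.8 CPM and then at 44.1 and 45.7 CPM. Several of these 9 genes are also immediate early genes that respond to other stimuli.

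**Figure D4:**
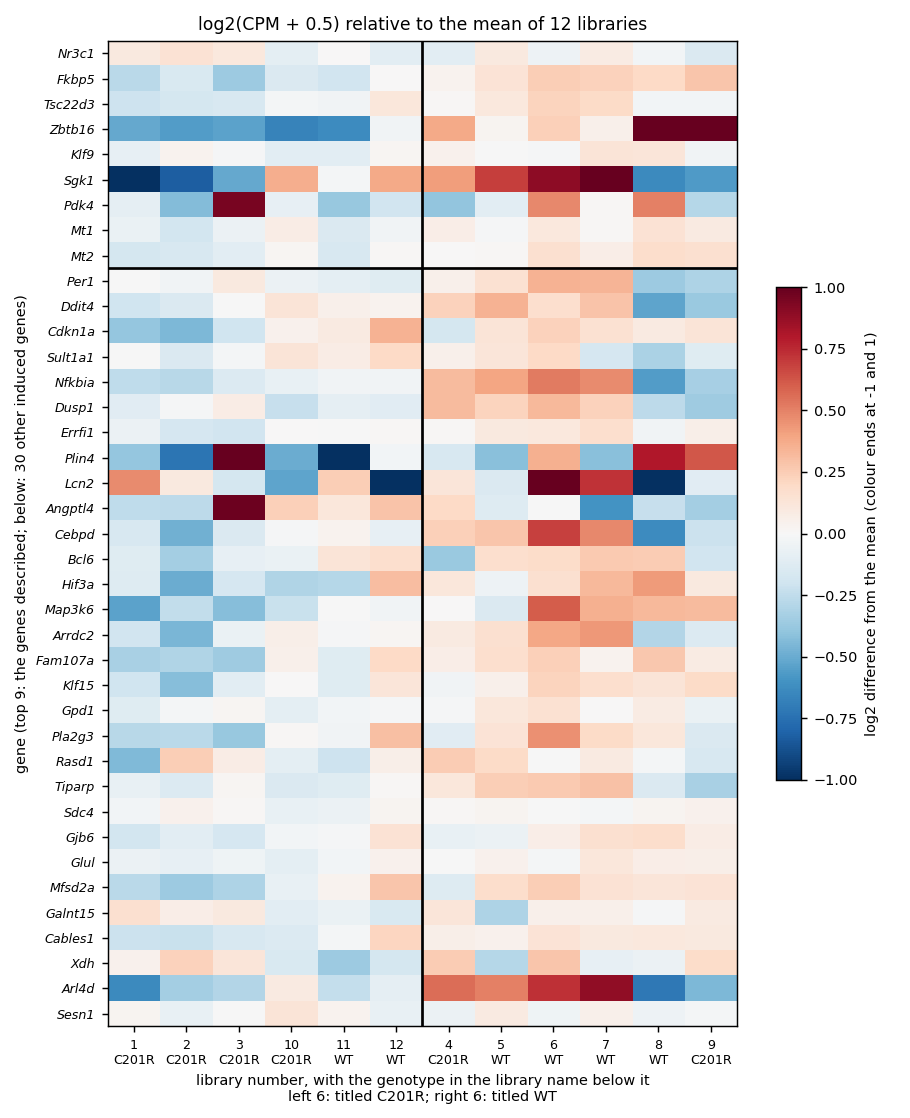
Difference of log2(CPM + 0.5) from the mean of 12 libraries (colour, ending at -1 and 1) for the 9 genes (upper rows) and 30 other glucocorticoid-induced genes (lower rows); columns are libraries, the left 6 titled C201R and the right 6 titled WT, with the genotype in the library name under each number. Sgk1, Nfkbia and Arl4d are high in libraries 4 to 7 and low in 8 and 9, where Zbtb16 is highest.

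Those 30 genes, induced by glucocorticoids in other settings, were mostly lower in C201R in each genotype comparison. By title 25 of 30 were lower, 10 had an unadjusted p under 0.05, all lower (3.28% of all genes), 0 were called by edgeR or DESeq2, and the median log2 difference was -0.15. The lowest p-values were those of Map3k6 (log2 difference -0.56 ± 0.15, adjusted p = 0.579 by edgeR) and Errfi1 (-0.14 ± 0.04, adjusted p = 0.640). By library name 25 were lower with a median of -0.18 (21 and -0.07 with limma on log2(TPM + 1)), and 11 had an unadjusted p under 0.05, all lower (6.81% of all genes). DESeq2 called 5 of them lower, against 236 of all 17765 genes called lower. With edgeR 1 was called, against 0.715% of all genes. It was Bcl6, a transcriptional repressor, which fell by 0.42 on the log2 scale (SE 0.06, adjusted p = 0.00339 by edgeR). Bcl6 was at 26.9, 23.0, 27.6, 22.5, 25.5 and 27.9 CPM in libraries named C201R (1 to 4, 9 and 10) and at 32.9, 33.3, 35.1, 35.0, 32.1 and 32.9 CPM in those named WT (5 to 8, 11 and 12), with no overlap. Bcl6 thus separated by library name, where 1.05% of all genes did so with C201R lower. Fkbp5 and Zbtb16 separated by title, where 0.186% of all genes did so. In the 8 undisputed libraries 24 were lower, and 14 had an unadjusted p under 0.05, all lower (6.80% of all genes). With edgeR 0 were called (0.158% of all genes), and DESeq2 called 10, all lower (1.41% of all genes in either direction). The lowest p-values by edgeR were those of Cables1 (-0.29 ± 0.04, adjusted p = 0.0599 by edgeR) and Mfsd2a (-0.42 ± 0.07, adjusted p = 0.0623 by edgeR). Along number 1 of the 30 was called, against 6.38% of all genes. It was Cdkn1a, a brake on the cell cycle, which rose by 0.042 per step (SE 0.011, adjusted p = 0.0392 by edgeR).

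Among genes that hold the receptor or handle its hormone, edgeR gave no call by genotype, and DESeq2 called 1, Ptges3, lower by library name with number in the fit. That DESeq2 fit called 532 of all 17765 genes lower. Of 14 tested (16 listed), 11 were lower by title with a median of -0.04, 0 were called by edgeR or DESeq2, 1 had an unadjusted p under 0.05, and the lowest p was that of Hsp90aa1, the inducible Hsp90, with a log2 difference of -0.12 ± 0.04 (adjusted p = 0.640 by edgeR). Along number 3 were called, against 6.38% of all genes. The chaperone Hspa8 rose by 0.031 per step (SE 0.005, adjusted p = 0.016 by edgeR), and the co-chaperone Stip1 rose by 0.025 (SE 0.006, adjusted p = 0.0375 by edgeR). Ptges3, which encodes the co-chaperone p23, fell by 0.023 (SE 0.006, adjusted p = 0.0428 by edgeR). On the TPM scale 5 of these genes rose along number and Ptges3 was not called.

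Other metal response genes gave no call by genotype. Of 3 tested (4 listed), 2 were lower by title, 1 had an unadjusted p under 0.05 and 0 were called by edgeR or DESeq2. Slc30a1, a zinc exporter induced by zinc, fell by 0.065 per step along number (SE 0.008, adjusted p = 0.00895 by edgeR), where 6.38% of all genes were called. Its level went from 49.6, 50.8 and 49.3 CPM in libraries 1 to 3 to 38.5, 35.2 and 32.8 CPM in 10 to 12. Mt3, the brain metallothionein, differed by -0.06 ± 0.05 by title (adjusted p = 0.866 by edgeR).

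Of 10 paralogs of the members, 5 were lower and 5 higher by title (3 and 7 on the TPM scale), 1 had an unadjusted p under 0.05, and 0 were called by edgeR or DESeq2. The paralog Tsc22d2 was called lower by library name with number in the fit (-0.28 ± 0.06, adjusted p = 0.0456 by edgeR). In that fit 1.32% of all genes were called, and on the TPM scale the Tsc22d2 call was lost. Pdk3 rose by 0.018 per step along number (SE 0.004, adjusted p = 0.0328 by edgeR), where 6.38% of all genes were called.

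Clock genes, several of which the receptor also regulates, were called along number in the fit with titled sex and library-name genotype. By genotype edgeR gave no call for them. Of 14 tested (15 listed), 0 were called by edgeR or DESeq2 by title or library name, with 1 unadjusted p under 0.05 in each. By library name with number in the fit, DESeq2 called 2 lower, voom 1 lower and limma on log2(TPM + 1) 1 higher. Those fits called 700, 418 and 504 of all 17765 genes in either direction. Along number 6 fell and 2 rose, against 6.38% of all genes called, and on the TPM scale 3 fell and 1 rose. Xist differed from the titled sex of that fit in 6 of the 12 libraries. Over all genes the 1134 calls along number became 68 without the sex term and 0 in libraries 4 to 12 alone, a limit that holds for every list here. Dbp, a clock output factor, fell by 0.129 per step (SE 0.011, adjusted p = 0.00155 by edgeR), from 74.2 CPM in library 1 to 30.2 CPM in library 12, and Nr1d2, a repressor of the core loop, fell by 0.051 (SE 0.006, adjusted p = 0.00895). Arntl, the core activator that peaks opposite to Dbp, rose by 0.063 per step (SE 0.008, adjusted p = 0.00895 by edgeR), and Hlf, a relative of Dbp, fell by 0.039 (SE 0.007, adjusted p = 0.0174), a call lost on the TPM scale. The labels do not give a time of collection. What the number stands for, and the part of the clock in the members' values, was not tested.

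**Figure D5:**
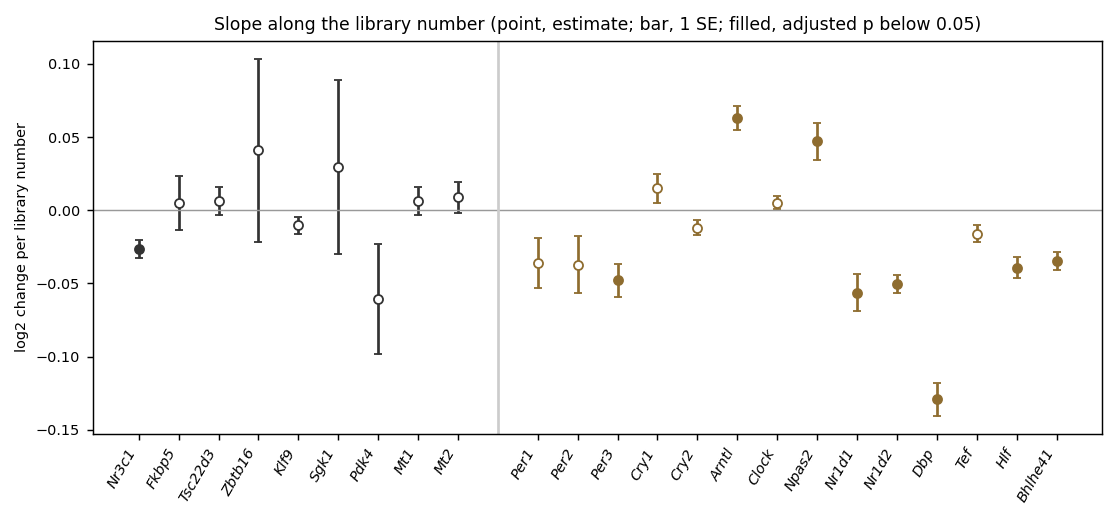
Fitted log2 change per step of library number (vertical axis) for the 9 genes (left) and 14 clock genes (right); points are edgeR estimates over 12 libraries, bars are 1 standard error, and filled points have an adjusted p under 0.05. Nr3c1 is the 1 filled point on the left at -0.027, and 8 are filled on the right, with Dbp lowest at -0.129.

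Markers of other cells gave few calls beside these differences. By title 0 of the tested markers were called by edgeR or DESeq2, all 6 endothelial markers were higher in C201R with a median of 0.22, all 6 blood markers were higher with a median of 0.35 (3 of 6 with voom weights, median -0.002), and summed endothelial levels were 199 to 240 CPM in C201R and 192 to 222 CPM in WT. All 4 fat markers tested (median 2.33), all 5 of meninges and fibroblasts (median 0.28) and all 6 of leukocytes (median 0.20; 5 of 6 with voom weights) were also higher in C201R by title, with 0 called. Single libraries weighed on the fat and blood differences. Library 3 held 129 CPM of summed fat markers, and library 2 held 2986 CPM of summed blood markers. The median summed level was lower in titled C201R than in titled WT for fat (1.18 against 1.67 CPM) and for blood (943 against 1139 CPM). By library name, where edgeR called 0.715% of all genes, Slc1a3, an astrocyte glutamate transporter, rose by 0.18 on the log2 scale (SE 0.04, adjusted p = 0.0398 by edgeR). Of the 6 astrocyte markers 4 were lower with a median of -0.01, but with limma on log2(TPM + 1) 1 was lower and the median was 0.02. Stmn2, a neuronal microtubule protein, fell by 0.19 by library name (SE 0.04, adjusted p = 0.0342 by edgeR), a call lost on the TPM scale. Along number 4 of 6 blood markers were called lower, with Hba-a1 at -0.21 ± 0.04 per step (adjusted p = 0.0239 by edgeR), against 6.38% of all genes called. The microglial gene P2ry12 was also called lower (-0.052 ± 0.010, adjusted p = 0.0218 by edgeR), the other 4 of 5 microglial markers having positive slopes. The part of cell makeup in the members' differences was not tested.

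The genes outside the 9 whose pattern over the 12 libraries was most like that of 3 members were taken by Pearson's r of log2(CPM + 0.5) among 15176 genes with a mean of at least 1 CPM. For Fkbp5 they were 2810403A07Rik (r = 0.953), Rhpn2 (0.942), Rhof (0.935), Gareml (0.918) and Slc2a1 (0.911). For Zbtb16 they were Mertk (0.942), Itpk1 (0.903), Atp10a (0.892), Map7 (0.878) and Rrp9 (0.869), and for Mt2 they were Gareml (0.932), Btaf1 (0.906), Herpud1 (0.905), BC068281 (0.900) and Mettl7a1 (0.896). Mertk, a receptor for the clearance of dying cells, had 27.3 and 28.1 CPM in libraries 8 and 9 and 17.1 to 23.2 CPM in the others. Slc2a1, the glucose transporter of the blood-brain barrier, had 119 to 138 CPM in the libraries titled C201R and 134 to 157 CPM in those titled WT. Gareml stood in the lists of both Fkbp5 and Mt2. With 12 points and so many genes compared, a high r is a description only.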

How the data were processed

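Per the labels' protocols, stranded libraries of polyadenylated RNA were read as paired ends of 75 bases. RSEM 1.2.12 and Bowtie2 2.2.0 are named in the submitters' processing notes; a genome build is not given in the sources used here. The 12 deposited tables held, per the file headers, an expected count, a TPM and an FPKM per gene, made by the authors with RSEM, which shares out a read that matches more than 1 gene. The FPKM values were left unused.

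Expected counts were rounded, scaled by TMM, filtered by filterByExpr with the 4 titled groups and tested with edgeR 4.0.16 (quasi-likelihood, R 4.3.3) with titled sex as a term. The filter left 17765 genes for all 12 libraries and 18384 for the 8 undisputed ones. P-values were adjusted by Benjamini-Hochberg over all genes tested, with a threshold of 0.05. Standard errors are the absolute log2 difference over the root of its F statistic. The number was fitted as a linear term with titled sex and library-name genotype. Alternatives used DESeq2 1.42.0 and limma 3.58.1, on log2(TPM + 1), log2(TPM + 0.1) and by voom, among others. Tables and plots were made with matplotlib 3.10.9, scipy 1.17.1, pandas 2.3.3 and numpy 2.4.6 in Python 3.11.15. The fits were tested on simulated data. No pair of the 66 pairs of libraries differed by less than sampling noise.

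The members and lists were chosen with earlier results of these data known. The genes named are the 9 members, from each list the genes called in a main comparison (at most 4 by lowest p) or otherwise at most 2 of lowest p, the 5 most alike genes of 3 members, and Gars and Xist. Mt3, Nfkbia, Per1 and the other genes named for libraries 8 and 9 were chosen after their values were seen. Positions are from GENCODE M21 (GRCm38), where 37607 gene IDs matched. 1 gene list that was also fitted is not reported here.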

Additional observations from a re-analysis of the deposited data

Results flagged for a closer look

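In each genotype grouping, every group of 4 or 6 libraries was checked for a member whose highest or lowest library stood apart from the rest. Of 54 groups checked, 6 were picked out, and chance picks out about 1 in 20. They fall on 2 genes and 3 libraries, and groupings share libraries, so the 6 are not separate.

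Zbtb16 in library 12 was at 27.1 CPM, the highest of the 6 libraries titled C201R, where the next was 19.2 CPM. The gap was 0.80 of the group's range. This library is named WT. Zbtb16 in library 8 was at 59.1 CPM, against 32.8 CPM in the next of the libraries named WT (gap 0.635 of the range) and of the 4 undisputed WT libraries (gap 0.851 of the range). Library 9, titled WT, was as high at 62.3 CPM, so library 8 did not stand apart among the libraries titled WT.

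Pdk4 in library 3 was at 39.4 CPM, against 19.0 CPM in the next C201R library, by title, by library name and among the undisputed libraries (gap 0.831 of the range in each). Library 3 also held the most skeletal muscle markers, 2901 CPM, and the most fat markers, 129 CPM.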

How the results depend on the processing

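No paired analysis was possible because the title numbers run from 1 to 12 and no 2 groups share one. The subsets of libraries 4 to 12, 1 to 9 and under 1000 CPM of muscle markers, and the fit of title with library name, were chosen after seeing the data. Depth limits little over all 12 libraries, but sampling of reads can be a larger share of the spread within a group. The cause of each change was not tested.

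Genes called by title numbered 0 with edgeR, 18 with DESeq2 and 8 with number in the fit. By library name the 127 called (30 higher, 97 lower) became 335 with DESeq2, 41 (16 higher, 25 lower) and 42 (17 and 25) with limma on log2(TPM + 1) and log2(TPM + 0.1), 235 with number, 29 in the 8 undisputed libraries, 25 in libraries 4 to 12 and 12 in low-muscle libraries. Along number the 1134 (428 higher, 706 lower) became 2304 (2115 and 189) and 2297 (2105 and 192) with TPM, 1718 with voom weights, 68 without the sex term, 299 without genotype, 561 with title genotype, 29 in libraries 1 to 9, 603 in low-muscle libraries, 0 in libraries 4 to 12, and 2 and 0 within the libraries named C201R and WT. By library name with number the 235 (56 higher, 179 lower) became 700 with DESeq2, 504 (452 higher, 52 lower) and 492 (441 and 51) with TPM, 418 with voom and 119 without the sex term. In the 8 libraries the 29 (6 higher, 23 lower) became 259 with DESeq2, 91 without a filter, 10 (5 and 5) and 12 (7 and 5) with TPM, 242 with voom and 70 without the sex term. Leaving out 1 library gave 0 by title, 52 to 209 by library name, 60 to 1684 along number, 64 to 720 by library name with number and 5 to 121 in the 8 libraries.

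Signs changed only for small or unstable log2 differences. By library name Nr3c1 was 0.0170 and 0.0174 with TPM pseudocounts of 1 and 0.1, 0.0041 without the sex term and 0.0448 in the 8 libraries, Zbtb16 was 0.13 in libraries 4 to 12 and 0.39 in low-muscle libraries, and Mt1 was 0.0391 and 0.0588 there. With number in the fit Mt1 was 0.0631 and 0.0632 with the same pseudocounts. By title Pdk4 was 0.0370 with library name as a term and Nr3c1 was -0.0479 in libraries 4 to 12. Slopes along number in libraries 4 to 12 were -0.038 (Fkbp5), -0.014 (Tsc22d3), -0.077 (Zbtb16), -0.086 (Sgk1), -0.016 (Mt1) and -0.016 (Mt2). Within libraries named WT they were -0.048, -0.019, -0.069, -0.104, -0.020 and -0.025 for the same genes, and in low-muscle libraries -0.0076 (Fkbp5), -0.022 (Sgk1) and 0.0052 (Pdk4).

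Leaving out each library in turn changed a sign in further ranges. They ran from -0.308 to 0.105 for Pdk4 by title, and by library name from -0.0499 to 0.0312 for Nr3c1, -0.553 to 0.0576 for Zbtb16 and -0.0737 to 0.0040 for Mt1. Along number they ran from -0.0147 to 0.0183 for Fkbp5, -0.0421 to 0.0875 for Zbtb16, -0.0258 to 0.0598 for Sgk1 and -0.00096 to 0.0139 for Mt1. By library name with number they ran from -0.725 to 0.236 for Zbtb16 and -0.0507 to 0.0352 for Mt1, and in the 8 libraries from -0.445 to 0.0368 for Pdk4.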
